A study of Mus musculus with 18 samples.

Results

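The RNA of alveolar macrophages lacking both Bhlhe40 and Bhlhe41 (DKO, Bhlhe40-/- Bhlhe41-/-) was compared with that of wild-type cells (WT, Bhlhe40+/+ Bhlhe41+/+) sorted from the lungs of mixed bone marrow chimeras. The comparison holds 4 libraries, 2 of each genotype, out of 12 RNA-seq libraries and 18 samples in the series, and every gene of the table was considered. The mice were C57BL/6, and the cells were sorted directly from digested lung as CD11c+ SiglecF+ CD11b low cells. WT cells were taken as CD45.1+ CD45.2- and DKO cells as CD45.1- CD45.2+, so the donor mark and the genotype cannot be told apart. The labels name neither the recipients, the marrow mixture nor the time after transplantation, and cells of the host that carry the same mark as a donor could not be recognised. The series design calls the 2 libraries of a group biological replicates, and the p-values measure the spread between such libraries.

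Alveolar macrophages live in the air spaces of the lung, where they take up surfactant lipids, inhaled particles and dying cells. Bhlhe40 and Bhlhe41 form a pair of related repressors of the basic helix-loop-helix class, bind E-box sequences and take part in the circadian clock. A mixed chimera receives marrow of both genotypes after its own has been ablated, so that WT and DKO macrophages can mature in a shared lung.

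Both proteins are known to bind CACGTG, an E-box that reads the same on both strands. The genes with the largest changes were therefore looked up in a RefSeq promoter table (assembly GRCm38.p6) that holds, for each gene, the 250 bases before and the 50 bases after its start. Of the 15 features that rose most, 11 had a window and 1 held the motif, and of the 15 that fell most, 8 had a window and 2 held it. These 3 windows are shown on the strand of the gene with CACGTG in capitals. They lie at chr17:12769657-12769956 (minus strand, Igf2r), chr17:87635729-87636028 (plus strand, Epcam) and chr19:24030970-24031269 (minus strand, Fam189a2).
Igf2r: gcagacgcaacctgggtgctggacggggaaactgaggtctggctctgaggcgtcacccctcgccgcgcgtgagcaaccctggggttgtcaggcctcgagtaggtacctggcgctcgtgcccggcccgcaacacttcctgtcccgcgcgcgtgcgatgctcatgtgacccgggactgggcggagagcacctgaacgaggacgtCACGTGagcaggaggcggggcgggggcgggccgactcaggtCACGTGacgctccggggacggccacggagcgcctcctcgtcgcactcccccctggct
Epcam: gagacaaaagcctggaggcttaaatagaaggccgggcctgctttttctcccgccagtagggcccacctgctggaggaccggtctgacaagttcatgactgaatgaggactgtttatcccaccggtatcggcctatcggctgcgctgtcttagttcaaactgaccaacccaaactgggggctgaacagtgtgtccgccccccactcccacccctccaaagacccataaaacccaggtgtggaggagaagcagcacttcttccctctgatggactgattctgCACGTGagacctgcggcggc
Fam189a2: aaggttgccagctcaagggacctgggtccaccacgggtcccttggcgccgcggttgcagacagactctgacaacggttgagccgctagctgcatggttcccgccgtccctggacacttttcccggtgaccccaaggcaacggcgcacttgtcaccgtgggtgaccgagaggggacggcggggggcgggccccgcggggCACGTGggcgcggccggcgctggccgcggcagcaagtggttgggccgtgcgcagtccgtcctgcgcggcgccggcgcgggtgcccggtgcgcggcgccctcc

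In Igf2r the motif occurs at 2 places, starting 48 and 7 bases before the gene start. Igf2r rose and the other 2 genes fell, so windows with the motif were found on both sides. Over the table, 7.15% of 32851 windows of this length hold CACGTG, and 8.09% of 27025 genes hold it in at least 1 window. Counted per gene, the share was 12.3% among genes tested here (1070 of 8714), 13.2% among those higher in DKO (167 of 1265), 12.3% among those lower (168 of 1371) and 12.1% among those that did not pass. Among genes that changed by at least 1 on the log2 scale it was 12.3% for rises and 11.2% for falls. These are matches of letters within 1 window per gene start and not measured binding sites.

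Values are given in TPM, transcripts scaled to a fixed total per library, as the authors deposited them, always for replicate 1 and then replicate 2 of each genotype. Differences are log2 fold changes, DKO relative to WT, on log2(TPM + 1) with the standard error (SE) of a limma fit, a scale that understates the change of genes read at low levels. A gene rose or fell where its p-value, adjusted by the Benjamini-Hochberg procedure across the 10942 features tested, was under 0.05. A feature was tested where at least 2 of the 4 libraries reached 1 TPM, so one under 1 TPM in both libraries of a genotype was tested only because it was high in the other. Counts over a list are therefore also given for the members read in both genotypes, that is with at least 1 TPM in at least 1 library of each. Reads recovered from the deposited values came to 16.51 and 20.36 M (1e6) in the WT libraries and 6.59 and 20.08 M in the DKO libraries. DKO library 1 stood apart: besides the lowest depth it had 1650 features read in no other chimera library, against 247 to 368 in the other 3. Calls and counts that change by more than 1.5 times without a library are given with that value.

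The targeted genes were examined first. Bhlhe40 was at 940.3 and 664 TPM in WT and 243 and 193 TPM in DKO (log2 fold change -1.86 ± 0.18, adjusted p = 4.52e-05). Bhlhe41 was at 100.3 and 88.6 TPM in WT and 110.1 and 112 TPM in DKO (log2 fold change 0.23 ± 0.17, adjusted p = 0.352). Bhlhe40 thus fell but stayed well read in both DKO libraries, and Bhlhe41 did not pass. The labels do not say which exons were removed, so transcripts that keep other exons would still be counted, and these levels cannot check the deletions.

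Of the genes for the sort markers, Itgax, which encodes CD11c, was at 969 and 879 TPM in WT and 1367 and 1124 TPM in DKO (log2 fold change 0.43 ± 0.09, adjusted p = 0.00684). Its call was lost without WT library 2 or DKO library 1. Siglecf, listed as Siglec5 and encoding SiglecF, fell from 311 and 283 TPM in WT to 125 and 123 TPM in DKO (log2 fold change -1.25 ± 0.13, adjusted p = 7.72e-05). Itgam, which encodes CD11b, rose from 1.26 and 1.92 TPM in WT to 10.7 and 8.997 TPM in DKO (log2 fold change 2.07 ± 0.30, adjusted p = 0.000618), and stayed far below Itgax in DKO. Ptprc, which encodes CD45, was at 247 and 242 TPM in WT and 245 and 232 TPM in DKO and did not pass (adjusted p = 0.82).

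Of 10942 features tested among 24732, 3318 passed (30.3%), 1619 higher in DKO (14.8%) and 1699 lower (15.5%). The falls were mostly small: 450 features rose and 184 fell by at least 1 on the log2 scale, 125 rose and 22 fell by at least 2, and 41 rose and 4 fell by at least 3. The 2 DKO libraries lay outside the range of the 2 WT libraries for 65.0% of features. With the spread taken from the 4 chimera libraries alone, 2394 features passed (21.9%, 11.3% higher and 10.6% lower). Leaving out WT library 1, WT library 2, DKO library 1 or DKO library 2 left 18.9%, 20.3%, 18.5% or 27.9% of features called, 9.62%, 11.5%, 9.9% or 13.2% higher and 9.31%, 8.86%, 8.58% or 14.7% lower. Counts of list members are to be read against these shares and a median log2 fold change over all features of 0.00. The plot of gene lists sets them side by side. In such bulk RNA, fewer cells of a type and less RNA per cell cannot be told apart.

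**Figure D1:**
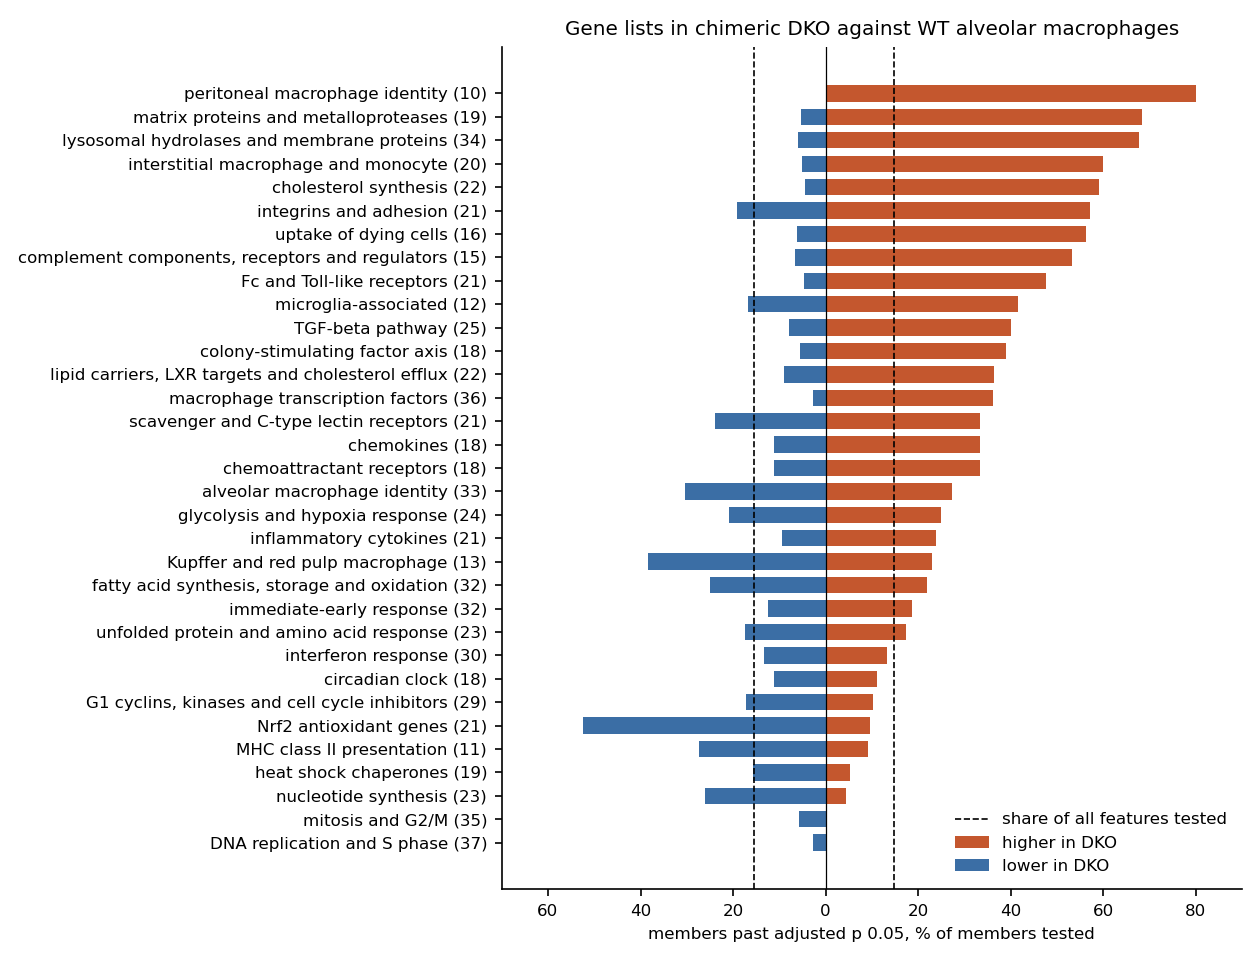
Share of the tested members that rose (right, orange) or fell (left, blue) in DKO against WT alveolar macrophages of mixed chimeras, in % of members tested (their number in parentheses), for gene lists with at least 10 tested members and without the marker lists of other cell types. Dashed lines mark the same shares over all features, 14.8% higher and 15.5% lower. The bars include members tested only through 1 genotype, which could be called only as higher in that genotype. Among members read in both genotypes, 1 of 17 inflammatory cytokines, 2 of 13 chemoattractant receptors and 7 of 9 peritoneal genes rose. Of the lists drawn, those of peritoneal macrophage identity, matrix, lysosome, interstitial macrophages and cholesterol synthesis lie farthest to the right, and the Nrf2 antioxidant list farthest to the left.

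Among the largest rises were the 3 genes of C1q, the recognition molecule of the classical complement pathway, which is built from the products of C1qa, C1qb and C1qc. C1qb rose from 3.21 and 1.89 TPM in WT to 569 and 604 TPM in DKO (log2 fold change 7.40 ± 0.18, adjusted p = 6.92e-09). C1qc rose from 1.61 and 0.401 TPM in WT to 196 and 189 TPM in DKO (log2 fold change 6.66 ± 0.25, adjusted p = 3.96e-08). C1qa rose from 2.05 and 1.37 TPM in WT to 164 and 182 TPM in DKO (log2 fold change 6.01 ± 0.20, adjusted p = 2.43e-08). All 3 were barely read in WT and abundant in both DKO libraries.

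Pianp, which encodes a ligand of the inhibitory receptor PILR alpha, rose from 1.62 and 2.08 TPM in WT to 242 and 216 TPM in DKO (log2 fold change 6.34 ± 0.17, adjusted p = 8.06e-09). Apoe, a carrier of cholesterol and other lipids, rose from 22.5 and 16.2 TPM in WT to 893 and 796 TPM in DKO (log2 fold change 5.39 ± 0.14, adjusted p = 8.06e-09). Apoe was well above the level of C1q in both WT libraries, and the DKO libraries stood far above them. Igf2r, the receptor that delivers mannose 6-phosphate tagged enzymes to lysosomes, rose from 1.42 and 1.398 TPM in WT to 49.8 and 45.9 TPM in DKO (log2 fold change 4.34 ± 0.12, adjusted p = 8.06e-09). Hpgds, the haematopoietic prostaglandin D synthase, rose from 1.47 and 1.41 TPM in WT to 53.0 and 52.2 TPM in DKO (log2 fold change 4.46 ± 0.22, adjusted p = 3.93e-07). For both genes the 2 libraries of a genotype lay close together, with WT under 2 TPM.

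Sdc4, a heparan sulfate proteoglycan of the cell surface, rose from 1.33 and 1.33 TPM in WT to 69.8 and 60.9 TPM in DKO (log2 fold change 4.83 ± 0.27, adjusted p = 7.67e-07). Sox4, an HMG-box transcription factor, rose from 0.709 and 0.322 TPM in WT to 34.9 and 34.4 TPM in DKO (log2 fold change 4.57 ± 0.15, adjusted p = 3.08e-08). Kcnj10, an inwardly rectifying potassium channel, rose from 0.242 and 0.254 TPM in WT to 27.4 and 27.2 TPM in DKO (log2 fold change 4.50 ± 0.13, adjusted p = 9.24e-09). Each of these 3 genes was read at under 2 TPM in both WT libraries, and the 2 DKO libraries lay close together. Chp2, which encodes a calcineurin B homologous protein, had 0 reads in both WT libraries and 323 reads over the DKO libraries (29.5 and 21.8 TPM). Set against the floor of 3 reads over the WT group it was at least 149-fold higher in DKO, a bound that covers counting error only. Sost, which encodes the secreted Wnt inhibitor sclerostin, rose from 0.253 and 0 TPM in WT to 22.0 and 17.3 TPM in DKO (log2 fold change 4.20 ± 0.21, adjusted p = 4.14e-07), from 4 WT reads. Others among the 15 largest rises were Gas7 with 4.45 ± 0.20 and Fam83f with 4.22 ± 0.12.

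**Figure D2:**
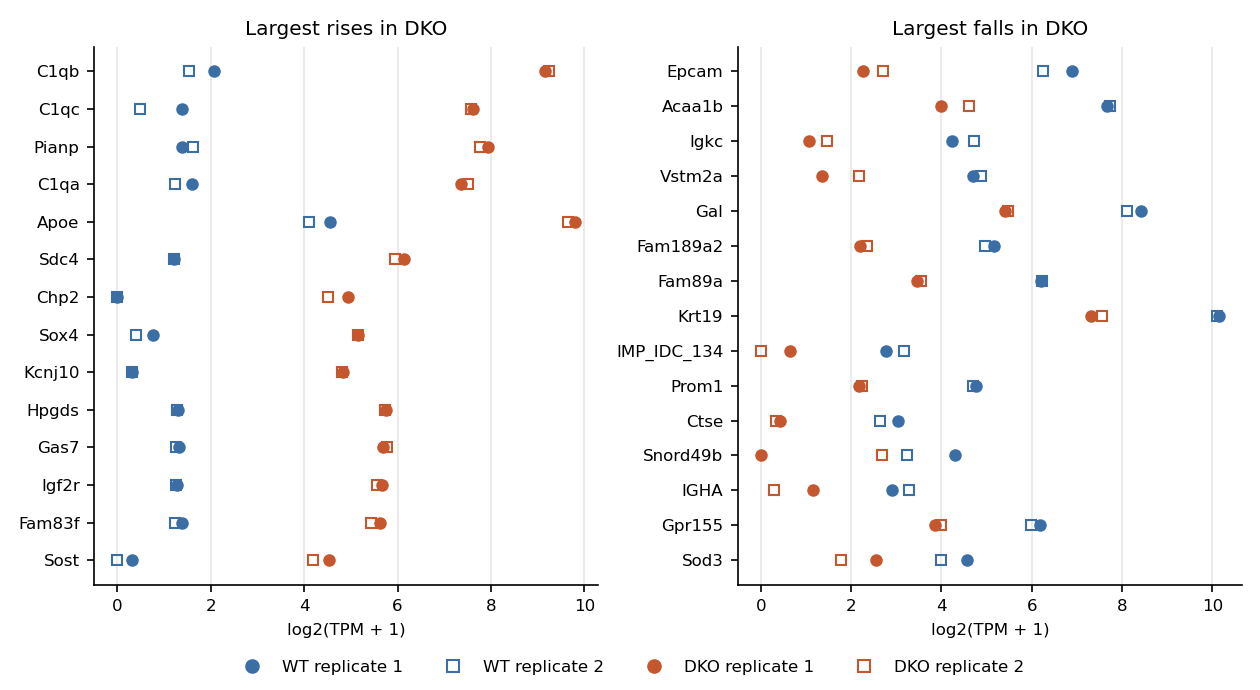
The features with the largest rises (left) and the largest falls (right) in DKO chimeric alveolar macrophages, as log2(TPM + 1) in each of the 4 libraries. Blue symbols are WT and orange symbols DKO, with filled circles for replicate 1 and open squares for replicate 2. The features were chosen for libraries that do not overlap, and most rises start between 0 and 2 on this scale.

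The largest fall was in Epcam, an epithelial cell adhesion molecule that alveolar macrophages are also known to carry, from 119 and 75.1 TPM in WT to 3.76 and 5.49 TPM in DKO (log2 fold change -4.10 ± 0.21, adjusted p = 4.34e-07). Acaa1b, a peroxisomal thiolase of fatty acid oxidation, fell from 201 and 211 TPM in WT to 14.99 and 23.5 TPM in DKO (log2 fold change -3.38 ± 0.23, adjusted p = 3.78e-06). Gal, which encodes the neuropeptide galanin, fell from 344 and 276 TPM in WT to 41.3 and 43.3 TPM in DKO (log2 fold change -2.84 ± 0.12, adjusted p = 1.27e-07). All 3 were well read in both WT libraries. Krt19, a keratin, fell from 1136 and 1102 TPM in WT to 158 and 186 TPM in DKO (log2 fold change -2.70 ± 0.10, adjusted p = 3.96e-08), and remained the highest of these genes in DKO. Prom1, the membrane protein CD133, fell from 26.2 and 25.0 TPM in WT to 3.52 and 3.72 TPM in DKO (log2 fold change -2.52 ± 0.13, adjusted p = 3.95e-07). Sod3, the extracellular superoxide dismutase, fell from 22.6 and 14.9 TPM in WT to 4.83 and 2.44 TPM in DKO (log2 fold change -2.12 ± 0.25, adjusted p = 0.000173).

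Epcam and Krt19 are also genes of lung epithelium, whose markers, without these 2, summed to 272 and 231 TPM in WT and 154 and 129.6 TPM in DKO. The largest member was Cdh1, which alveolar macrophages also use. Without Cdh1 the markers summed to 173 and 141 TPM in WT and 113 and 89.3 TPM in DKO. The part of epithelial RNA in the falls was not tested. Vstm2a, Fam189a2, Fam89a and Gpr155 fell as well, with log2 fold changes of -3.02, -2.79, -2.71 and -2.16. The aspartic protease gene Ctse fell from 7.22 and 5.24 TPM in WT to 0.332 and 0.267 TPM in DKO (log2 fold change -2.46 ± 0.19, adjusted p = 8.63e-06). Immunoglobulin transcripts were also among the falls: Igkc, the kappa constant region, was at 17.8 and 25.2 TPM in WT and 1.09 and 1.75 TPM in DKO (log2 fold change -3.21 ± 0.71, adjusted p = 0.0068), and IGHA, the alpha heavy chain, at 6.46 and 8.77 TPM in WT and 1.22 and 0.218 TPM in DKO (log2 fold change -2.38 ± 0.70, adjusted p = 0.0267). The call of Igkc was lost without DKO library 1, and that of IGHA under several settings. The B cell receptor gene Cd79b rose from 0 and 0.177 TPM in WT to 1.18 and 1.42 TPM in DKO (log2 fold change 1.08 ± 0.19, adjusted p = 0.00214). It was under 1 TPM in both WT libraries and was tested only through its DKO level, so only a rise could be called. The feature listed as IMP_IDC_134, which the files do not pair with a gene, fell by 2.65. Snord49b, a small nucleolar RNA, rested on 14 WT and 3 DKO reads, and its call was lost without WT library 1, WT library 2 or DKO library 1 and with the 4 libraries alone. Without DKO library 1, which had 0 reads, its log2 fold change was -1.09 (adjusted p = 0.289).

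Genes that mark alveolar macrophages moved in both directions. Of the list of alveolar identity genes, 9 of 33 tested members rose and 10 fell, with a median log2 fold change of 0.00. The list holds both deleted genes, and Bhlhe40 is 1 of the 10 that fell. Marco, a scavenger receptor for particles and bacteria, rose from 13.9 and 26.0 TPM in WT to 166 and 151 TPM in DKO (log2 fold change 2.99 ± 0.21, adjusted p = 4.74e-06). Fabp4, a fatty acid binding protein, rose from 107 and 158 TPM in WT to 637 and 644 TPM in DKO (log2 fold change 2.30 ± 0.15, adjusted p = 2.64e-06). Lpl, the lipoprotein lipase, rose from 1358 and 1342 TPM in WT to 2197 and 2018 TPM in DKO (log2 fold change 0.64 ± 0.13, adjusted p = 0.00396). The fall of Ear1, an RNase of the eosinophil-associated family, was from 979 and 1028 TPM in WT to 568 and 582 TPM in DKO (log2 fold change -0.80 ± 0.10, adjusted p = 0.000231), and near-identical copies of Ear genes may share reads. Siglecf, Krt19 and Epcam, described above, are further members that fell. Pparg, the transcription factor needed to form alveolar macrophages, was at 258 and 238 TPM in WT and 277 and 274 TPM in DKO and did not pass (log2 fold change 0.15 ± 0.15, adjusted p = 0.486). Chil3, among the most abundant transcripts of these cells, did not pass either (log2 fold change -0.48 ± 0.26, adjusted p = 0.19) although both DKO libraries lay below both WT libraries. With the spread of the 4 chimera libraries alone its adjusted p was 0.0419. The plot of alveolar identity genes shows every member in every library.

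**Figure D3:**
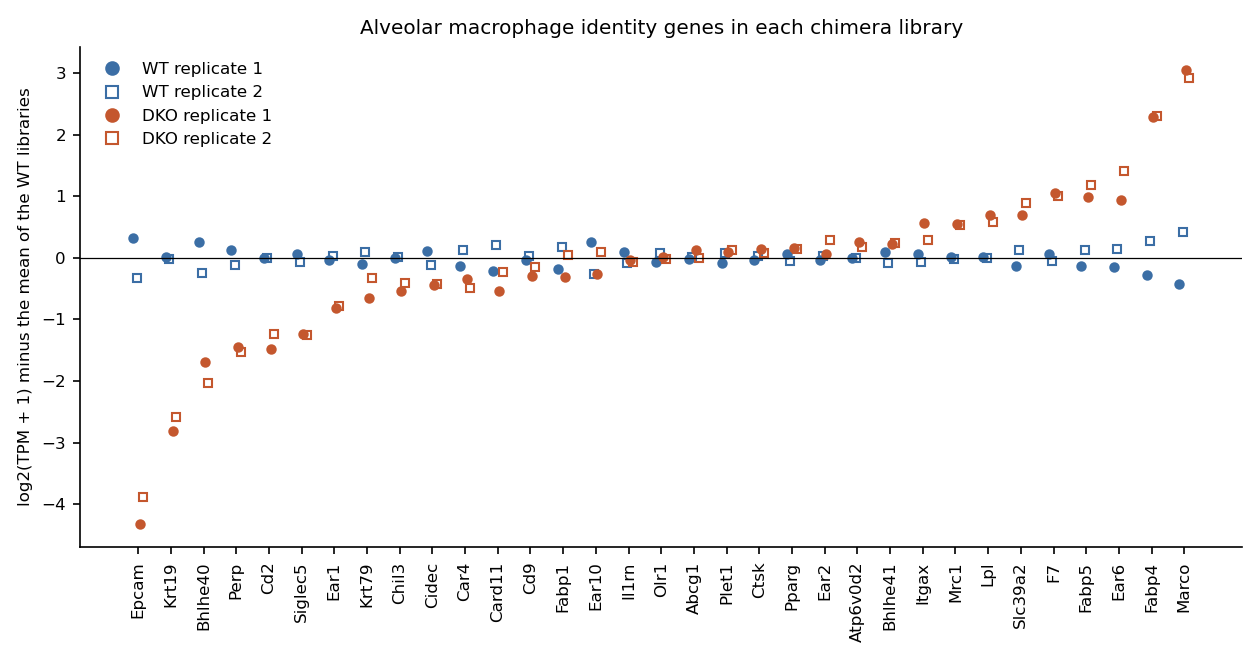
The 33 alveolar macrophage identity genes, among them the deleted Bhlhe40 and Bhlhe41, ordered by their difference, as log2(TPM + 1) of each chimera library minus the mean of the 2 WT libraries. Epcam lies lowest and Marco highest in both DKO libraries (orange), while the genes between Car4 and Mrc1 lie near the WT libraries (blue).

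Markers of other tissue macrophages were measured alongside. Of the peritoneal macrophage list, 13 of 23 genes were too low to test, among them Gata6, the factor that specifies these cells, at 0.0819 and 0.132 TPM in WT and 0.221 and 0.0355 TPM in DKO. Of the others, 8 of 10 tested members rose and 0 fell (among those read in both genotypes, 7 of 9 and 0), with a median log2 fold change of 1.2. Because a gene can pass the filter through DKO alone, that count says nothing of all 23. Arg1, an enzyme that splits arginine, rose from 1.42 and 2.15 TPM in WT to 46.5 and 38.7 TPM in DKO (log2 fold change 3.98 ± 0.28, adjusted p = 4.74e-06). Fcna, the lectin ficolin A, rose from 0.695 and 1.204 TPM in WT to 29.4 and 26.7 TPM in DKO (log2 fold change 3.91 ± 0.18, adjusted p = 1.52e-07). Cd93, a surface glycoprotein, rose from 35.9 and 51.4 TPM in WT to 269 and 255 TPM in DKO (log2 fold change 2.58 ± 0.20, adjusted p = 7.57e-06). The defining factor was therefore at the limit of reading in all 4 libraries while these 3 members were far higher in DKO.

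Of the list of interstitial macrophage and monocyte genes, 12 of 20 tested members rose and 1 fell (among those read in both genotypes, 10 of 17 and 0), with a median log2 fold change of 0.80. The list shares C1q and Apoe with the largest rises. Falls numbered 0 without any 1 of the 4 libraries. Csf1r, the receptor of macrophage colony-stimulating factor, rose from 296 and 266 TPM in WT to 469 and 433 TPM in DKO (log2 fold change 0.68 ± 0.08, adjusted p = 0.000215). The monocyte gene Ly6c2 was not tested and lay under 1 TPM in all 4 libraries, and Ccr2 did not pass (log2 fold change 0.50 ± 0.30, adjusted p = 0.248). H2-Aa and H2-Ab1, the class II genes that are high in interstitial macrophages, did not pass (log2 fold change -0.02 ± 0.40, adjusted p = 0.975 for H2-Aa, and log2 fold change -0.14 ± 0.36, adjusted p = 0.811 for H2-Ab1).

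Among Kupffer and red pulp macrophage genes 3 of 13 tested members rose and 5 fell (among those read in both genotypes, 2 of 9 and 3), with a median log2 fold change of -0.45. Counted again, falls were 3 without any 1 of the 4 libraries. Their members went both ways. Fcna, described above with the peritoneal genes, is also a member and rose by 3.91 ± 0.18. Id3, an inhibitor of helix-loop-helix factors, fell from 28.1 and 27.4 TPM in WT to 9.99 and 6.18 TPM in DKO (log2 fold change -1.70 ± 0.25, adjusted p = 0.000589). Clec1b, the receptor CLEC-2, fell from 47.5 and 56.0 TPM in WT to 9.04 and 14.6 TPM in DKO (log2 fold change -2.07 ± 0.26, adjusted p = 0.00022). Clec4f, which defines Kupffer cells, was at 0 in all 4 libraries. Among microglia-associated genes 5 of 12 tested members rose and 2 fell (among those read in both genotypes, 3 of 10 and 2), with a median log2 fold change of -0.06, and Tmem119 and Sall1 were too low to test. Falls came to 0 without WT library 1 or DKO library 1 and 1 without WT library 2.

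In the list of complement components, receptors and regulators, which leaves out C1q, 8 of 15 tested members rose and 1 fell (among those read in both genotypes, 6 of 13 and 1), with a median log2 fold change of 0.32. C3ar1, the receptor of the C3a fragment, rose from 0.608 and 0.467 TPM in WT to 16.0 and 15.4 TPM in DKO (log2 fold change 3.44 ± 0.12, adjusted p = 3.64e-08). C4b, a component cleaved by the C1 complex, rose from 0.631 and 1.59 TPM in WT to 7.19 and 6.51 TPM in DKO (log2 fold change 1.93 ± 0.19, adjusted p = 3.94e-05). C1ra, a protease subunit of C1, rose from 31.9 and 31.5 TPM in WT to 72.2 and 64.7 TPM in DKO (log2 fold change 1.08 ± 0.15, adjusted p = 0.000443). C3ar1 and C4b were near 1 TPM or below in WT, whereas C1ra was read throughout. C3, the central component, was at 181 and 210.0 TPM in WT and 202 and 224 TPM in DKO and did not pass (log2 fold change 0.12 ± 0.22, adjusted p = 0.709). C5ar1, the receptor of C5a, did not pass (log2 fold change 0.04 ± 0.10, adjusted p = 0.823).

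Among lipid carriers, targets of the liver X receptors (LXR, sensors of oxysterols) and efflux genes, 8 of 22 tested members rose and 2 fell (among those read in both genotypes, 7 of 21 and 2), with a median log2 fold change of 0.10. The number of falls was 1 without WT library 1 or DKO library 2 and 0 without WT library 2. Apoe and Lpl were among the rises. The transporter genes Abca1 and Abcg1, established LXR targets that export cholesterol, did not pass (log2 fold change -0.24 ± 0.14, adjusted p = 0.211 for Abca1, and log2 fold change 0.06 ± 0.12, adjusted p = 0.747 for Abcg1). Scd1, the stearoyl-CoA desaturase and another LXR target, was at 38.5 and 50.5 TPM in WT and 21.3 and 21.2 TPM in DKO (log2 fold change -1.02 ± 0.22, adjusted p = 0.00559), a fall that did not pass without WT library 2. Of Apoe, Abca1, Abcg1 and Scd1, Apoe alone passed as higher.

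Cholesterol synthesis genes, which are induced together by SREBP2 when cells sense too little sterol, were higher in DKO: 13 of 22 tested members rose and 1 fell, with a median log2 fold change of 0.53. Rises numbered 8 without WT library 2, and falls, counted again, were 0 without WT library 1, WT library 2 or DKO library 1. Sqle, the squalene epoxidase, rose from 34.6 and 30.9 TPM in WT to 63.7 and 57.7 TPM in DKO (log2 fold change 0.87 ± 0.16, adjusted p = 0.00213). Hsd17b7, a reductase of sterol intermediates, rose from 11.2 and 9.92 TPM in WT to 21.7 and 16.0 TPM in DKO (log2 fold change 0.77 ± 0.14, adjusted p = 0.00259). Both DKO libraries lay above both WT libraries for both genes.

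Of genes of fatty acid synthesis, storage and oxidation, 7 of 32 tested members rose and 8 fell (among those read in both genotypes, 6 of 31 and 8), with a median log2 fold change of 0.01. Rises came to 4 without DKO library 1. Elovl6, an elongase, rose from 1.03 and 1.03 TPM in WT to 7.58 and 7.63 TPM in DKO (log2 fold change 2.08 ± 0.17, adjusted p = 1.28e-05). Fads1, a desaturase, rose from 5.37 and 6.39 TPM in WT to 16.0 and 13.8 TPM in DKO (log2 fold change 1.21 ± 0.17, adjusted p = 0.000513). G0s2, an inhibitor of triglyceride breakdown, fell from 23.3 and 34.4 TPM in WT to 5.85 and 8.73 TPM in DKO (log2 fold change -1.84 ± 0.35, adjusted p = 0.00294). No library of 1 genotype overlapped the other for these 3 genes. Pdk4, a kinase that restrains pyruvate dehydrogenase, fell from 24.1 and 25.3 TPM in WT to 6.84 and 11.6 TPM in DKO (log2 fold change -1.37 ± 0.26, adjusted p = 0.00304).

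Genes of the lysosome, where engulfed material is digested, were largely higher in DKO. Of hydrolases and membrane proteins of the lysosome, 23 of 34 tested members rose and 2 fell (among those read in both genotypes, 23 of 33 and 1), with a median log2 fold change of 0.36. Summed over the list, they took 41415 and 41209.9 TPM in WT and 77972 and 72338 TPM in DKO. Besides Igf2r, the cysteine protease gene Ctsl rose from 246 and 253 TPM in WT to 744 and 737 TPM in DKO (log2 fold change 1.57 ± 0.12, adjusted p = 8.43e-06). Lgmn, the asparaginyl endopeptidase legumain, rose from 359.9 and 376 TPM in WT to 1089 and 969 TPM in DKO (log2 fold change 1.48 ± 0.08, adjusted p = 8.73e-07). Ctse, described above, was 1 of the 2 members that fell. The rise of Tfeb, a transcription factor that drives lysosomal genes, was from 63.1 and 60.3 TPM in WT to 112 and 111 TPM in DKO (log2 fold change 0.84 ± 0.09, adjusted p = 6.99e-05).

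Of genes for the uptake of dying cells, 9 of 16 tested members rose and 1 fell (among those read in both genotypes, 7 of 14 and 1), with a median log2 fold change of 0.71. The number of falls was 0 without WT library 2 or DKO library 1. Thbs1, the bridging protein thrombospondin 1, rose from 0.496 and 1.93 TPM in WT to 26.0 and 39.5 TPM in DKO (log2 fold change 3.98 ± 0.34, adjusted p = 1.71e-05). Mfge8, which links phosphatidylserine on dying cells to integrins, rose from 18.4 and 24.0 TPM in WT to 146 and 118 TPM in DKO (log2 fold change 2.59 ± 0.33, adjusted p = 0.000281). Itgav, the integrin subunit that binds Mfge8, rose from 19.0 and 16.7 TPM in WT to 35.1 and 30.4 TPM in DKO (log2 fold change 0.84 ± 0.09, adjusted p = 9.76e-05). Thbs1 was low in WT, whereas Mfge8 and Itgav were well read in all 4 libraries. The receptor kinase genes Mertk and Axl did not pass (log2 fold change 0.25 ± 0.09, adjusted p = 0.0534 for Mertk, and log2 fold change -0.10 ± 0.20, adjusted p = 0.746 for Axl).

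Of scavenger and C-type lectin receptors, 7 of 21 tested members rose and 5 fell (among those read in both genotypes, 6 of 19 and 4), with a median log2 fold change of 0.36. Falls numbered 3 without any 1 of the 4 libraries. Clec4a1, a C-type lectin receptor, rose from 3.19 and 1.97 TPM in WT to 34.6 and 30.6 TPM in DKO (log2 fold change 3.25 ± 0.20, adjusted p = 1.39e-06). Msr1, the class A scavenger receptor, rose from 25.2 and 25.8 TPM in WT to 91.9 and 80.0 TPM in DKO (log2 fold change 1.71 ± 0.13, adjusted p = 5.91e-06). Mrc1, the mannose receptor, was higher in both DKO libraries (763 and 748 TPM in WT and 1112 and 1089.7 TPM in DKO) but did not pass (adjusted p = 0.249, and 0.00627 with the 4 libraries alone).

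Among macrophage transcription factors, 13 of 36 tested members rose and 1 fell (among those read in both genotypes, 10 of 33 and 1), with a median log2 fold change of 0.15. Counted again, falls were 0 without WT library 1, WT library 2 or DKO library 1. Next to Tfeb, its relative Mitf rose from 26.9 and 28.5 TPM in WT to 51.4 and 50.8 TPM in DKO (log2 fold change 0.86 ± 0.11, adjusted p = 0.000266). Tcf4, an E protein, rose from 5.86 and 6.47 TPM in WT to 10.003 and 10.039 TPM in DKO (log2 fold change 0.62 ± 0.09, adjusted p = 0.000707). Spi1, the master factor PU.1, was at 1122 and 1130.2 TPM in WT and 1193 and 1114 TPM in DKO and did not pass (log2 fold change 0.03 ± 0.07, adjusted p = 0.773).

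Of the colony-stimulating factor axis, 7 of 18 tested members rose and 1 fell, with a median log2 fold change of 0.32. Falls came to 0 without WT library 2 or DKO library 1. Csf3r, the receptor of granulocyte colony-stimulating factor, rose from 22.7 and 14.3 TPM in WT to 119 and 121 TPM in DKO (log2 fold change 2.67 ± 0.19, adjusted p = 4.69e-06). Socs3, a feedback inhibitor of cytokine signals, rose from 31.9 and 17.8 TPM in WT to 88.4 and 59.9 TPM in DKO (log2 fold change 1.57 ± 0.30, adjusted p = 0.00322). Csf2ra, the alpha chain of the GM-CSF receptor on which alveolar macrophages depend, did not pass (log2 fold change 0.26 ± 0.10, adjusted p = 0.0659).

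Of the TGF-beta pathway, 10 of 25 tested members rose and 2 fell (among those read in both genotypes, 9 of 24 and 2), with a median log2 fold change of 0.11. Ltbp3, which stores latent TGF-beta in the matrix, rose from 2.22 and 3.28 TPM in WT to 12.6 and 13.7 TPM in DKO (log2 fold change 1.93 ± 0.20, adjusted p = 6.54e-05). Tgfbr1, the type I receptor, rose from 185 and 176 TPM in WT to 298 and 267 TPM in DKO (log2 fold change 0.64 ± 0.13, adjusted p = 0.00526). Pmepa1, a target and inhibitor of the pathway, fell from 79.7 and 80.9 TPM in WT to 35.5 and 33.7 TPM in DKO (log2 fold change -1.19 ± 0.10, adjusted p = 1.8e-05).

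Few genes of the cell cycle passed. Of DNA replication and S phase genes, 0 of 37 tested members rose and 1 fell, with a median log2 fold change of -0.05. The number of rises was 1 without WT library 2, and falls numbered 3 without WT library 1 and 0 without WT library 2 or DKO library 1. Pcna, the polymerase clamp, was the member that fell (log2 fold change -0.45 ± 0.13, adjusted p = 0.0215), and its call was lost without WT library 2 or DKO library 1 and with the 4 libraries alone. Of mitosis and G2/M genes, 0 of 35 tested members rose and 2 fell, with a median log2 fold change of -0.16. Falls, counted again, were 1 without WT library 1, WT library 2 or DKO library 2 and 0 without DKO library 1. Mki67, a marker of cycling cells, was at 14.4 and 39.4 TPM in WT and 19.1 and 41.2 TPM in DKO and did not pass (log2 fold change 0.22 ± 0.43, adjusted p = 0.732). Its level was higher in replicate 2 than in replicate 1 of both genotypes, and this spread exceeded the difference between genotypes.

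Of G1 cyclins, kinases and inhibitors, 3 of 29 tested members rose and 5 fell (among those read in both genotypes, 3 of 28 and 4), with a median log2 fold change of -0.04. Ccnd2, cyclin D2, fell from 176 and 156 TPM in WT to 87.8 and 83.5 TPM in DKO (log2 fold change -0.94 ± 0.11, adjusted p = 0.000115). Cdkn2b, the inhibitor p15, fell from 4.98 and 6.00 TPM in WT to 0.759 and 0.813 TPM in DKO (log2 fold change -1.86 ± 0.18, adjusted p = 3.55e-05). Cdkn2a, which encodes p16 and p19Arf, fell from 7.83 and 9.50 TPM in WT to 2.17 and 3.19 TPM in DKO (log2 fold change -1.40 ± 0.19, adjusted p = 0.000418). Mxd1, an antagonist of Myc, rose from 47.1 and 41.3 TPM in WT to 141 and 125 TPM in DKO (log2 fold change 1.56 ± 0.16, adjusted p = 5.89e-05).

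Immediate-early genes, which respond within minutes to stimuli including tissue digestion, moved both ways: 6 of 32 tested members rose and 4 fell, with a median log2 fold change of 0.09. Falls came to 1 without WT library 1 or WT library 2 and 2 without DKO library 2. Ier3 rose from 207 and 185 TPM in WT to 1089 and 921 TPM in DKO (log2 fold change 2.35 ± 0.21, adjusted p = 2.24e-05). Dusp2, a MAP kinase phosphatase, rose from 3.56 and 1.31 TPM in WT to 16.8 and 8.26 TPM in DKO (log2 fold change 1.98 ± 0.34, adjusted p = 0.00173). Zfp36, which marks inflammatory mRNAs for decay, rose from 1361 and 1448 TPM in WT to 2676 and 2607 TPM in DKO (log2 fold change 0.91 ± 0.14, adjusted p = 0.000737). For the transcription factors Egr1 and Atf3 no call was made (log2 fold change -0.52 ± 0.70, adjusted p = 0.62 for Egr1, and log2 fold change -0.36 ± 0.31, adjusted p = 0.423 for Atf3). Egr3 did not pass (log2 fold change -1.01 ± 0.35, adjusted p = 0.0536), but passed without DKO library 1.

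Of heat shock chaperones, 1 of 19 tested members rose and 3 fell, with a median log2 fold change of -0.18. The number of falls was 1 without WT library 2 or DKO library 1. Hspe1, a mitochondrial chaperonin, fell from 205 and 235 TPM in WT to 102 and 143 TPM in DKO (log2 fold change -0.85 ± 0.15, adjusted p = 0.00169). Dnajb4, a cochaperone, rose from 4.396 and 4.12 TPM in WT to 10.6 and 8.95 TPM in DKO (log2 fold change 1.03 ± 0.16, adjusted p = 0.000929).

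Of interferon response genes 4 of 30 tested members rose and 4 fell (among those read in both genotypes, 4 of 28 and 4), with a median log2 fold change of 0.08, shares close to those of all features. Falls numbered 1 without WT library 1 and 0 without WT library 2 or DKO library 1. Cxcl10, an interferon-induced chemokine, rose from 23.9 and 20.4 TPM in WT to 51.3 and 42.8 TPM in DKO (log2 fold change 1.05 ± 0.22, adjusted p = 0.00541). Gbp3, a guanylate binding protein, rose from 5.70 and 6.09 TPM in WT to 11.1 and 12.3 TPM in DKO (log2 fold change 0.88 ± 0.14, adjusted p = 0.00119). Isg15, a ubiquitin-like protein induced by interferon, did not pass (log2 fold change -0.44 ± 0.18, adjusted p = 0.094).

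Of MHC class II presentation genes, 1 of 11 tested members rose and 3 fell, with a median log2 fold change of -0.20. Counted again, falls were 1 without WT library 1 or DKO library 2. The rise was Ctss, the protease cathepsin S that trims the invariant chain (log2 fold change 0.98 ± 0.08, adjusted p = 8.41e-06). H2-Oa, a brake on peptide loading, fell from 15.8 and 13.9 TPM in WT to 5.71 and 3.24 TPM in DKO (log2 fold change -1.57 ± 0.22, adjusted p = 0.000479). Ciita, the master regulator of class II genes, did not pass (log2 fold change -0.64 ± 0.27, adjusted p = 0.0976).

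Of chemokines, 6 of 18 tested members rose and 2 fell, with a median log2 fold change of 0.17. Falls came to 1 without WT library 1, WT library 2 or DKO library 1. Ccl17, a ligand of CCR4, rose from 7.89 and 9.46 TPM in WT to 72.0 and 34.1 TPM in DKO (log2 fold change 2.39 ± 0.27, adjusted p = 0.000121). Cxcl1, which attracts neutrophils, rose from 55.0 and 39.1 TPM in WT to 235 and 216 TPM in DKO (log2 fold change 2.26 ± 0.35, adjusted p = 0.00083). Cxcl16, a transmembrane chemokine, rose from 11.5 and 10.1 TPM in WT to 35.8 and 30.9 TPM in DKO (log2 fold change 1.54 ± 0.27, adjusted p = 0.00207). The DKO libraries differed most from each other for Ccl17, which was higher in DKO library 1 and is also a marker of dendritic cells, described with the other cell types.

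Of chemoattractant receptors, 6 of 18 tested members rose and 2 fell (among those read in both genotypes, 2 of 13 and 2), with a median log2 fold change of 0.33. The number of falls was 1 without any 1 of the 4 libraries. Ptafr, the receptor of platelet-activating factor, rose from 16.5 and 9.88 TPM in WT to 227 and 164 TPM in DKO (log2 fold change 3.81 ± 0.26, adjusted p = 3.66e-06). Cmklr1, a chemerin receptor, rose from 0.552 and 0.558 TPM in WT to 19.6 and 14.6 TPM in DKO (log2 fold change 3.52 ± 0.33, adjusted p = 3.47e-05). Both DKO values of Ptafr lay above both WT values, as for 31.8% of all features. Cmklr1 was under 1 TPM in both WT libraries and was tested only because it was high in DKO.

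Of inflammatory cytokines, 5 of 21 tested members rose and 2 fell (among those read in both genotypes, 1 of 17 and 2), with a median log2 fold change of 0.29. Rises numbered 3 without WT library 1 or DKO library 1. Tnfsf9, the ligand of CD137, rose from 0.638 and 0.430 TPM in WT to 7.74 and 5.16 TPM in DKO (log2 fold change 2.26 ± 0.26, adjusted p = 0.000141). Il6 was at 10.5 and 12.2 TPM in WT and 58.7 and 48.6 TPM in DKO (log2 fold change 2.15 ± 0.50, adjusted p = 0.00894), a call lost without WT library 1 or DKO library 1. Tnfsf13b, the B cell factor BAFF, fell from 14.6 and 9.78 TPM in WT to 5.40 and 3.33 TPM in DKO (log2 fold change -1.30 ± 0.20, adjusted p = 0.000914). Il18 fell from 435 and 446 TPM in WT to 317 and 361 TPM in DKO (log2 fold change -0.38 ± 0.07, adjusted p = 0.00358). Tnf and Il1b did not pass (log2 fold change 0.13 ± 0.49, adjusted p = 0.873 for Tnf, and log2 fold change 0.77 ± 0.56, adjusted p = 0.342 for Il1b).

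Of Fc and Toll-like receptors, 10 of 21 tested members rose and 1 fell (among those read in both genotypes, 8 of 19 and 1), with a median log2 fold change of 0.20. Tlr1, a partner of Tlr2, was at 0.0857 and 0.0346 TPM in WT and 7.73 and 6.56 TPM in DKO (log2 fold change 2.94 ± 0.19, adjusted p = 2.14e-06). It rested on 3 WT and 244 DKO reads, a ratio of read shares of 112 with a 95% counting interval of 38.0 to 549. Tlr5, the flagellin receptor, rose from 3.23 and 3.27 TPM in WT to 10.2 and 9.17 TPM in DKO (log2 fold change 1.33 ± 0.19, adjusted p = 0.000554). Tlr6, another partner of Tlr2, rose from 4.02 and 3.82 TPM in WT to 9.22 and 8.58 TPM in DKO (log2 fold change 1.01 ± 0.14, adjusted p = 0.000464). Tlr13, a sensor of bacterial ribosomal RNA, rose from 17.9 and 19.5 TPM in WT to 36.0 and 32.6 TPM in DKO (log2 fold change 0.84 ± 0.09, adjusted p = 0.000108). Tlr2 and Tlr4 themselves did not pass (log2 fold change -0.21 ± 0.19, adjusted p = 0.45 for Tlr2, and log2 fold change -0.01 ± 0.10, adjusted p = 0.972 for Tlr4).

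Adhesion and matrix genes were mostly higher. Of integrins and adhesion molecules, 12 of 21 tested members rose and 4 fell (among those read in both genotypes, 11 of 19 and 3), with a median log2 fold change of 0.42. Itgb7, an integrin beta chain, rose from 1.96 and 2.65 TPM in WT to 12.4 and 8.51 TPM in DKO (log2 fold change 1.78 ± 0.30, adjusted p = 0.00148). Icam2, a ligand of leukocyte integrins, rose from 4.01 and 2.59 TPM in WT to 9.26 and 7.44 TPM in DKO (log2 fold change 1.13 ± 0.16, adjusted p = 0.000418). Cdh1, E-cadherin, by which alveolar macrophages adhere to epithelium and which is itself among the epithelial markers, fell from 98.9 and 89.1 TPM in WT to 40.4 and 40.3 TPM in DKO (log2 fold change -1.2 ± 0.09, adjusted p = 7.87e-06). Epcam, the other epithelial adhesion molecule of the list, fell as well.

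Of matrix proteins and metalloproteases, 13 of 19 tested members rose and 1 fell, with a median log2 fold change of 0.54. Falls, counted again, were 0 without WT library 1 or DKO library 1. Fn1, fibronectin, rose from 535 and 504 TPM in WT to 1413 and 1364 TPM in DKO (log2 fold change 1.42 ± 0.11, adjusted p = 1.07e-05). Ecm1, a secreted matrix glycoprotein, rose from 42.1 and 46.6 TPM in WT to 181 and 153 TPM in DKO (log2 fold change 1.89 ± 0.23, adjusted p = 0.000209). Adam8, a membrane metalloprotease, rose from 3.49 and 5.19 TPM in WT to 29.7 and 28.5 TPM in DKO (log2 fold change 2.51 ± 0.21, adjusted p = 1.59e-05). Of the 3, Fn1 had by far the highest TPM in both genotypes.

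Of circadian clock genes, to which both deleted genes belong, 2 of 18 tested members rose and 2 fell (among those read in both genotypes, 1 of 17 and 2), with a median log2 fold change of 0.07. Rises came to 0 without any 1 of the 4 libraries, and the number of falls was 1 without WT library 1, DKO library 1 or DKO library 2. The falls were Bhlhe40 itself and Cry1, a repressor of the clock (log2 fold change -0.71 ± 0.18, adjusted p = 0.0121), whose call was lost without WT library 1, DKO library 1 or DKO library 2. Arntl and Per2, core clock genes, did not pass (log2 fold change -0.41 ± 0.20, adjusted p = 0.15 for Arntl, and log2 fold change 0.10 ± 0.19, adjusted p = 0.73 for Per2).

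Of glycolysis and hypoxia genes, 6 of 24 tested members rose and 5 fell (among those read in both genotypes, 6 of 23 and 5), with a median log2 fold change of 0.05. Falls numbered 2 without WT library 1 or DKO library 2. Vegfa, the angiogenic growth factor, rose from 20.2 and 20.9 TPM in WT to 78.5 and 72.9 TPM in DKO (log2 fold change 1.83 ± 0.41, adjusted p = 0.00717). Pfkfb3, which makes an activator of glycolysis, rose from 38.6 and 33.6 TPM in WT to 112 and 102 TPM in DKO (log2 fold change 1.54 ± 0.15, adjusted p = 3.8e-05). Gapdh, a core glycolytic enzyme with many near-identical pseudogenes that could take reads, fell from 97.8 and 116 TPM in WT to 58.6 and 67.3 TPM in DKO (log2 fold change -0.75 ± 0.14, adjusted p = 0.0033).

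Of the unfolded protein and amino acid response, 4 of 23 tested members rose and 4 fell, with a median log2 fold change of -0.04. Counted again, falls were 2 without WT library 1 or WT library 2 and 1 without DKO library 1. The enzymes of serine synthesis went apart: Psat1 rose from 10.4 and 11.5 TPM in WT to 28.9 and 30.3 TPM in DKO (log2 fold change 1.36 ± 0.10, adjusted p = 4.93e-06), and Phgdh, which acts before it, fell from 118 and 107 TPM in WT to 47.7 and 39.5 TPM in DKO (log2 fold change -1.35 ± 0.11, adjusted p = 8.63e-06). Asns, the asparagine synthetase, rose from 1.43 and 1.70 TPM in WT to 6.04 and 4.99 TPM in DKO (log2 fold change 1.34 ± 0.21, adjusted p = 0.00108).

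Nrf2 antioxidant genes fell more often than they rose: 2 of 21 tested members rose and 11 fell (among those read in both genotypes, 2 of 20 and 10), with a median log2 fold change of -0.36. Rises came to 0 without WT library 1, DKO library 1 or DKO library 2 and 1 without WT library 2, and the number of falls was 7 without WT library 1. Srxn1, sulfiredoxin, fell from 80.7 and 89.5 TPM in WT to 47.3 and 51.5 TPM in DKO (log2 fold change -0.77 ± 0.09, adjusted p = 0.000121). Sod1, the cytosolic superoxide dismutase, fell from 583 and 641 TPM in WT to 331 and 391 TPM in DKO (log2 fold change -0.76 ± 0.10, adjusted p = 0.000411). Gclm, a subunit of the enzyme that starts glutathione synthesis, fell from 48.0 and 46.1 TPM in WT to 32.0 and 33.0 TPM in DKO (log2 fold change -0.52 ± 0.10, adjusted p = 0.0024). The falls were modest, and both DKO libraries lay below both WT libraries for each of the 3. Hmox1, haem oxygenase, did not pass (log2 fold change -0.10 ± 0.12, adjusted p = 0.57).

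Of nucleotide synthesis genes, 1 of 23 tested members rose and 6 fell, with a median log2 fold change of -0.13. Falls numbered 3 without WT library 1 or DKO library 2. Uck2, a uridine-cytidine kinase, fell from 207 and 195 TPM in WT to 77.6 and 74.9 TPM in DKO (log2 fold change -1.39 ± 0.15, adjusted p = 8.48e-05). Hprt, the purine salvage enzyme, fell from 185 and 193 TPM in WT to 119 and 133 TPM in DKO (log2 fold change -0.58 ± 0.10, adjusted p = 0.00131). Impdh1, which commits purines to guanine nucleotides, rose from 35.5 and 46.1 TPM in WT to 62.9 and 65.3 TPM in DKO (log2 fold change 0.65 ± 0.11, adjusted p = 0.00197).

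Cells other than macrophages may pass a sort, and their markers were summed per library. Of 17 lung epithelial markers listed, 9 were tested, 5 fell and 1 rose. Falls, counted again, were 2 without WT library 1 and 3 without WT library 2 or DKO library 2. Sftpc, the surfactant protein of type 2 cells, fell from 71.0 and 50.7 TPM in WT to 26.8 and 14.1 TPM in DKO (log2 fold change -1.57 ± 0.25, adjusted p = 0.00106).

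Neutrophil markers summed to 113 and 94.9 TPM in WT and 234 and 242 TPM in DKO. Mmp8 and Csf3r made up most of this sum in all 4 libraries. Mmp8 was at 63.6 and 54.3 TPM in WT and 98.4 and 95.7 TPM in DKO, and Csf3r at 22.7 and 14.3 TPM in WT and 119 and 121 TPM in DKO. The doubled sum therefore rested on these 2 genes. Camp and Elane were at 0 and S100a8 did not pass (log2 fold change -0.42 ± 0.24, adjusted p = 0.209). Dendritic cell markers summed to 188 and 202 TPM in WT and 262 and 226 TPM in DKO. Most of it was Bst2, without which they summed to 38.8 and 40.4 TPM in WT and 131 and 75.3 TPM in DKO. Of these markers 5 of 9 tested rose and 0 fell (among those read in both genotypes, 2 of 6 and 0), and Cd207, a marker of Langerhans cells, was at 0. Fscn1, a marker of migrating dendritic cells, was at 0.147 and 0.357 TPM in WT and 8.99 and 5.05 TPM in DKO (log2 fold change 2.64 ± 0.25, adjusted p = 3.51e-05). Itgae, another dendritic cell marker and chosen after its values were seen, was at 0.0572 and 0.0925 TPM in WT and 7.63 and 1.56 TPM in DKO. Fscn1, Itgae and the chemokine Ccl17 were all higher in DKO library 1 than in DKO library 2. T and NK cell markers summed to 4.43 and 5.73 TPM in WT and 13.2 and 9.59 TPM in DKO, with Ncr1 and Klrb1c at 0. B cell markers summed to 127 and 131 TPM in WT and 142 and 137 TPM in DKO, of which Cd22, a sialic acid receptor, made up most, with 109 and 104 TPM in WT and 138 and 133 TPM in DKO. Without Cd22 the B cell markers summed to 18.7 and 26.98 TPM in WT and 4.61 and 4.0005 TPM in DKO, most of it Igkc in WT. Of the eosinophil and mast cell list, Prg2, Epx, Mcpt8, Tpsb2, Cma1, Ms4a2 and Fcer1a were at 0 in all 4 libraries. Whether such cells contributed to the rises of Ccl17, Csf3r or Tcf4 was not tested.

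Because WT and DKO donors differ in the CD45 allele as well as in the deleted genes, features near these loci were looked at, among the 50 tested on either side. Near Ptprc on chromosome 1, 42 of 100 passed, 26 higher and 16 lower. Near Bhlhe40 on chromosome 6, 40 of 100 passed, 23 higher and 17 lower. Near Bhlhe41, also on chromosome 6, 31 of 69 passed (44.9%), 13 higher and 18 lower. Each count was above the 30.3% called over all features, and the part of donor sequence in it was not tested. Near Ptprc, Ptgs2, the inducible cyclooxygenase, rose from 2.30 and 2.47 TPM in WT to 19.5 and 18.3 TPM in DKO (log2 fold change 2.55 ± 0.29, adjusted p = 0.00012), beside Kif21b with 2.25 ± 0.13 and Lamc1 with 1.38 ± 0.09, while Ctse, described above, fell by the most there. Near Bhlhe40, Plxna1 and Plxnd1, semaphorin receptors, rose by 1.93 ± 0.11 and 1.29 ± 0.12, beside Aldh1l1 with 1.72 ± 0.13 and 8430408G22Rik with 2.25 ± 0.23, and the largest fall among genes with a mean of at least 5 TPM in WT was in Alox5, the arachidonate lipoxygenase (log2 fold change -0.88 ± 0.11, adjusted p = 0.000177). Near Bhlhe41, Emp1, a membrane protein, rose from 75.2 and 67.3 TPM in WT to 353 and 327 TPM in DKO (log2 fold change 2.24 ± 0.09, adjusted p = 8.69e-08), beside Plbd1 with 2.65 ± 0.33, Ldhb with 2.44 ± 0.18 and Apold1 with 2.31 ± 0.18, and the largest fall by the same minimum was in Clec1b (log2 fold change -2.07 ± 0.26, adjusted p = 0.00022). Kif21b, 8430408G22Rik, Plbd1, Ldhb and Apold1 were under 1 TPM in both WT libraries and were tested only because they were high in DKO. Alox5 was chosen after its values were seen.

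Alveolar macrophages of the same genotypes were also sequenced from C57BL/6 mice that the labels do not call chimeric (steady state), 2 libraries each, sorted as CD11c+ SiglecF+ CD11b low with no CD45 gate. The 2 comparisons share no library. With libraries rescaled by medians of ratios, 3586 features passed in chimeras (32.8%) and 4466 at steady state (40.8%, 21.5% higher and 19.3% lower). Of the chimera calls 56.3% were also called at steady state, and of the steady-state calls 45.2% were also called in chimeras. Of the 2019 features called in both, 1860 had the same direction. The difference between the effects was tested as an interaction. It passed for 2911 features (26.6%), 2415 with a higher effect in chimeras (22.1%) and 496 with a lower one (4.53%). After rescaling the split was 798 (7.29%) and 1218 (11.1%), and rescaling moved the median steady-state effect from -0.25 to -0.01. Differences are counted below only where they passed on both scales, 7.29% of features with a higher and 4.52% with a lower effect in chimeras. Without WT library 1, WT library 2, DKO library 1 or DKO library 2 these shares were 3.76%, 4.66%, 4.02% or 6.85% and 2.84%, 2.85%, 2.99% or 5.79%, and the single-scale count of 2911 fell to 1403 (12.8%) without WT library 1 and 1747 (16.0%) without DKO library 1.

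Of mitosis genes 0 of 35 were higher and 31 lower at steady state after rescaling (median -0.83), and 7 had a higher and 0 a lower effect in chimeras. The members with a higher effect numbered 0 without WT library 1 or DKO library 1 and 2 without DKO library 2. Of S phase genes 0 of 37 were higher and 17 lower at steady state after rescaling (median -0.43), and 5 had a higher and 0 a lower effect in chimeras. The members with a higher effect numbered 1 without WT library 1 and 2 without DKO library 1 and 3 without DKO library 2. Without rescaling these lists had chimera medians of -0.16 and -0.05. Of immediate-early genes 2 of 32 were higher and 20 lower at steady state after rescaling (median -0.79), and 16 had a higher and 0 a lower effect in chimeras. The members with a higher effect numbered 9 without WT library 1 and 10 without WT library 2. Egr3 had the log2 fold changes -1.01 in chimeras and -5.86 at steady state (difference 4.85 ± 0.50, adjusted p = 0.000331, and 0.000536 after rescaling). Pmepa1 had -1.19 in chimeras and -5.43 at steady state (difference 4.23 ± 0.15, adjusted p = 3.28e-07).

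Cholesterol synthesis genes, of which 13 of 22 rose in chimeras after rescaling, behaved otherwise at steady state, where 2 of 22 were higher and 3 lower after rescaling (median -0.07), and 10 had a higher and 0 a lower effect in chimeras. Conversely, of lipid carriers and LXR targets 16 of 22 were higher and 2 lower at steady state after rescaling (median 0.77), and 1 had a higher and 10 a lower effect in chimeras. Scd1 had the log2 fold changes -1.02 in chimeras and 2.79 at steady state (difference -3.81 ± 0.31, adjusted p = 7.64e-05), opposite in direction. Abca1 had -0.24 and 1.45 (difference -1.69 ± 0.19, adjusted p = 0.000601). Of lysosomal genes 29 of 34 were higher and 2 lower at steady state after rescaling (median 0.83), and 0 had a higher and 11 a lower effect in chimeras. The members with a higher effect numbered 1 without DKO library 2, and the members with a lower effect numbered 6 without WT library 1 and 7 without WT library 2. Of interferon response genes 22 of 30 were higher and 0 lower at steady state after rescaling (median 0.66), and 0 had a higher and 7 a lower effect in chimeras.

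Among the genes with the largest rises, C1q rose less in chimeras than at steady state on the log2(TPM + 1) scale. C1qb, C1qc and C1qa rose by 9.96, 8.38 and 8.21 on the log2 scale at steady state, and the chimera effect minus the steady-state effect was -2.57 ± 0.25, adjusted p = 0.000239, -1.72 ± 0.35, adjusted p = 0.00915 and -2.20 ± 0.28, adjusted p = 0.00103. In WT the C1q genes were at 0.225 TPM or less at steady state, against 0.401 to 3.21 TPM in chimeras. Part of each difference therefore came from WT values near the floor. In DKO all 3 were also lower in chimeras than at steady state. Igf2r rose by 6.30 at steady state, and in chimeras by less, with a difference of -1.96 ± 0.17, adjusted p = 0.000121. Its WT level at steady state was 0.437 and 0.406 TPM, also near the floor. Mfge8 rose by 2.59 in chimeras and by 6.68 at steady state (difference -4.09 ± 0.47, adjusted p = 0.000601). Mmp14, a membrane metalloprotease, was at 3.12 and 2.40 TPM in WT and 3.39 and 2.53 TPM in DKO in chimeras, with a log2 fold change of 0.07 there and 4.38 at steady state (difference -4.31 ± 0.67, adjusted p = 0.003). Thbs1 went the other way, with 3.98 in chimeras and 0.69 at steady state (difference 3.29 ± 0.49, adjusted p = 0.00212), and Uck2 had -1.39 and -5.12 (difference 3.74 ± 0.21, adjusted p = 1.59e-05).

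**Figure D4:**
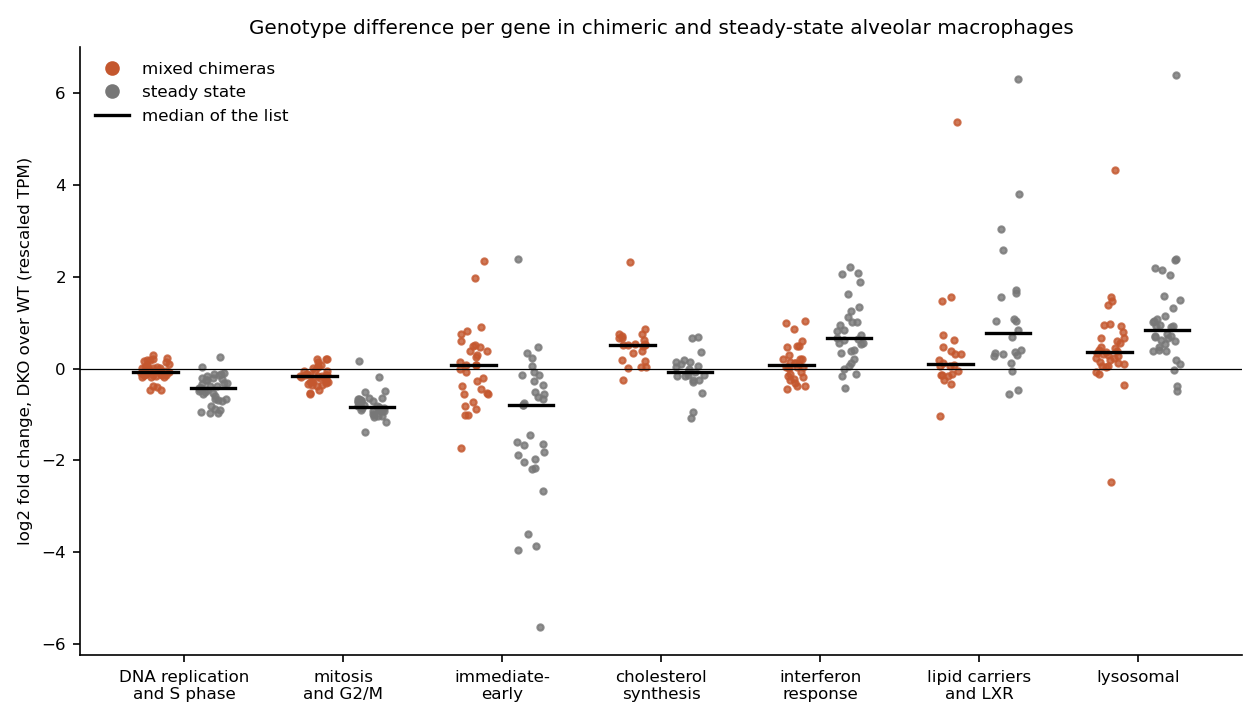
Log2 fold change of DKO over WT after rescaling for each tested member of 7 gene lists, in mixed chimeras (orange) and at steady state (grey), with bars at the medians. Medians of the mitosis and immediate-early lists are -0.17 and 0.07 in chimeras and -0.83 and -0.79 at steady state, while that of cholesterol synthesis is higher in chimeras and those of the interferon, LXR and lysosomal lists are higher at steady state.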

How the data were processed

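RNA-seq of poly(A) RNA, purified with an RNeasy Plus Mini kit and Dynabeads and prepared with NEBNext Ultra II, was deposited as a table per pairwise comparison. The authors deposited TPM per library and a mean normalized count signal over the 4 libraries of each table, per the file headers. Bowtie 1.0.0, Bowtie2, TopHat 1.4.1, HTSeq 0.5.3, DESeq2 1.2.10, mm9 and GRCm38.p3 are named in the submitters' processing notes, and which of them made these values is not given in the sources used here. Deposited fold changes and p-values and 6 ChIP-seq samples were not used. TPM and the mean normalized counts together gave whole reads (within 0.01 of a read) for 100% of values, which set the depths and the limma-voom alternative.

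Features with at least 1 TPM in at least 2 of the 4 chimera libraries were tested with limma 3.58.1 (R 4.3.3) on log2(TPM + 1), pseudocount 1, two-sided, with 6 group means over all 12 libraries (6 residual degrees of freedom, spread shared with the steady-state and peritoneal libraries). Adjustment followed Benjamini and Hochberg across 10942 features, with a threshold of 0.05. The script was tested on simulated data. Named genes were the 15 largest rises and falls with libraries that do not overlap and a mean of at least 5 TPM in the higher group, up to 4 passing members of each list, the targets and sort markers, the 5 largest interactions each way, genes near the loci, and members needed to show that a list did not pass. The members and lists were chosen with earlier results of these data known. Some genes of these lists are counted with their list but not reported by name here. Counting by strand is not stated, so overlapping and antisense genes may share reads. Alternatives were rescaling by medians of ratios, a pseudocount of 0.1, other filters, fewer libraries, limma-voom, a replicate block and each chimera library left out. Leaving out a library on both scales of the interaction was added after seeing the data.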

Additional observations from a re-analysis of the deposited data

Results flagged for a closer look

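Several of the genes with the largest changes in chimeras or the largest differences from steady state had DKO effects that differed between chimeras and steady state by the limma interaction test, both as deposited and after rescaling. Values here are the chimera effect minus the steady-state effect on the log2 scale, so that a negative value for a gene that rose means a smaller rise in chimeras. The test passed for 26.6% of all features on the deposited scale.

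Genes that rose in both settings and less in chimeras were C1qb at -2.57, C1qa at -2.20, C1qc at -1.72, Igf2r at -1.96, Gas7 at -1.48, Pianp at -1.33 and Apoe at -0.65. For C1q and Igf2r, part of the difference came from WT levels near the floor, as given above. Mfge8 differed by -4.09. Mmp14 differed by -4.31, a call lost with limma-voom. Sdc4 at 1.52, Sox4 at 1.66, Fam83f at 1.11 and Sost at 1.16 rose more in chimeras.

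Epcam, which fell in both settings, differed by 1.83, a smaller fall in chimeras. Egr3 differed by 4.85 and Pmepa1 by 4.23. The effect in chimeras was lower for Ctse at -2.42, Sod3 at -2.0, Fam89a at -1.45, Fam189a2 at -1.34, Krt19 at -1.02 and Prom1 at -0.63. Of these, Ctse and Sod3 were under 1 TPM in every steady-state library of both genotypes, with log2 fold changes of -0.05 and -0.12 there. With WT levels that low no clear fall could be read, so their differences cannot show that the DKO effect itself differed.

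The immunoglobulin features Igkc and IGHA differed by -5.72 and -4.54, and IMP_IDC_134 by -4.48. At steady state Igkc was at 3.77 and 8.19 TPM in WT and 14.7 and 89.4 TPM in DKO, so its DKO libraries differed widely from each other. The small RNA features Mir7067 at 5.39, Snord58b at 5.30 and Mir125a at 4.86 rested on 3, 3 and 5 reads over the 4 chimera libraries.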

How the results depend on the processing

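Leaving out each chimera library in turn gave 2022 to 3055 changed features, against 3318 with all 12 libraries, with 1053 to 1446 higher and 939 to 1609 lower in DKO. The lone library left in a group was assumed to vary like the other groups. The lowest total came without DKO library 1, the library with 6.59 M reads, and 2072 features passed without WT library 1. Differences between the chimera and steady-state effects numbered 1403 to 2559 without a library and 1502 with only the 8 alveolar libraries, against 2911. Without any 1 of the 4 chimera libraries the log2 change of Bhlhe40 stayed between -2.11 and -1.61.

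Replicate numbers recur across groups, but no label ties them to a shared mouse or day. The correlation of same-numbered deviations in WT and DKO was 0.152 over features, with only 2 pairs. With the replicate number as a block, 3107 features passed, 1506 higher and 1601 lower, 2525 interactions passed, Bhlhe40 changed by -1.86 and Bhlhe41 by 0.23.

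The rescaled, pseudocount, filter, 4-library, 8-library and voom settings left 2394 to 3586 changed features. No result in these tables changed direction while called. Of 162 named changes, rescaling lost 0 calls, limma-voom 3, the 4 libraries alone 5, a pseudocount of 0.1 10, and leaving out a library 11 to 20. Low depth of DKO library 1 limits calls of genes with few reads, such as Snord49b with 14 WT and 3 DKO reads.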

Other observations

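Small RNA features, which a poly(A) preparation captures only in part, were tested in 188 cases, of which 15 rose and 12 fell, below the 30.3% of all features. Without DKO library 1, 7 rose. Their summed level was 943 and 1020.0 TPM in the WT libraries and 1307 and 1028 TPM in the DKO libraries, so DKO library 1 held the most. The markers of other cells with no change called were those of erythrocytes and platelets, 0 of 2 tested, and sex-linked transcripts, 0 of 4 tested. Of endothelial and fibroblast markers 2 of 3 tested fell (among those read in both genotypes, 1 of 1), against 15.5% of all features. Neither fall held without WT library 1, WT library 2 or DKO library 1.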
